A study of Mus musculus with 4 samples.

Results

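The mitochondrial ribosome was followed through the genes named Mrpl (large subunit) and Mrps (small subunit) in hearts with and without the microRNA miR-1. Of the 22552 gene rows listed at each stage, 76 carry such a name followed by digits, with pseudogene names left out. The 75 of them with at least 1 FPKM in any library are described here, 46 named Mrpl and 29 named Mrps. FPKM is fragments per kilobase of transcript and 1000000 fragments, a level that can be compared between genes. The row outside this limit was Mrpl23, with 0.241 FPKM in the P2.5 dKO library and 0.385 in the P2.5 dHET library, and with 0.0165 FPKM in the E15.5 dKO library and 0.119 in the E15.5 dHET library. The nearest row inside it was Mrpl17, which reached 3.54 FPKM in its highest library.

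Poly-A selected RNA of whole mouse hearts of the strain labelled Sv129 was sequenced in 4 libraries. They are a P2.5 dKO and a P2.5 dHET library (postnatal day 2.5) and an E15.5 dKO and an E15.5 dHET library (embryonic day 15.5). The dKO hearts lack both miR-1 genes, miR-1-1 and miR-1-2, and the dHET hearts are controls from the same litters, per the study's design text. The label dHET is read as heterozygous for both genes, as the P2.5 control column carries the name hetero. The controls are thus not taken as wild type, although the E15.5 control column carries the name WT. Each group is 1 library, and the labels do not say how many hearts it holds, so values carry no error between replicates and each difference is one between 2 libraries.

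Mitochondria carry their own ribosome, which translates the few messenger RNAs of mitochondrial DNA, all of them for core subunits of the respiratory chain and ATP synthase. Its RNAs come from mitochondrial DNA, whereas its proteins are made in the cytosol from nuclear genes and imported. Part of these proteins descend from bacterial ribosomal proteins and keep their numbers (Mrps12 is the S12 of bacteria), and the others are specific to mitochondria. The heart is rich in mitochondria, and inherited defects of several subunits cause cardiomyopathy in humans. miR-1 is abundant in heart muscle, lowers messenger RNAs that pair with its seed, and has also been described inside muscle mitochondria, where it aids translation.

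The libraries themselves set limits on all that follows. The genes Mir1a-1 and Mir1a-2 were listed at 0 FPKM in all 4 libraries, so poly-A RNA gives no check of the deletion. At P2.5 the 2 libraries also differed in sex: Xist stood at 50.7 FPKM in the dKO library and 0.101 in the dHET library, and the Y-linked Ddx3y at 0 in the dKO library and 11.7 in the dHET library, so genotype and sex cannot be told apart at that stage. At E15.5 Ddx3y was present in both libraries, at 14.8 FPKM in dKO and 15.3 in dHET. The number of reads is unknown, since the tables hold no counts. The scaling total of the dKO library was 1.12 times that of the dHET library at P2.5 and 1.2 times that at E15.5, as read from the value of single fragments in low genes.

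The genes of the mitochondrial ribosome stood at middle to high levels in the heart. At P2.5 the median over the 75 genes was 27.8 FPKM in the dKO library and 23.7 FPKM in the dHET library, against 8.83 and 8.43 FPKM over all rows with at least 1 FPKM. At E15.5 the median was 18.5 FPKM in dKO and 19.0 FPKM in dHET, against 8.77 and 8.81 FPKM over all rows. Between 58 and 67 of the 75 lay above the all-gene median of their library. Together they made up 0.846% of the summed FPKM in P2.5 dKO, 0.792% in P2.5 dHET, 0.676% in E15.5 dKO and 0.687% in E15.5 dHET. The stages were normalised separately, so levels are set side by side across stages only by rank.

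**Figure D1:**
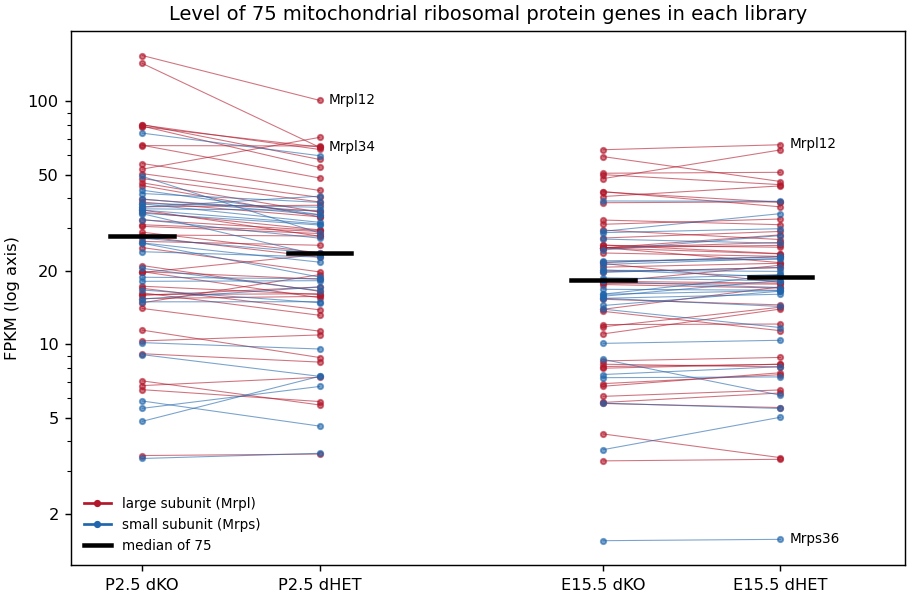
Level of each of the 75 genes in the 4 libraries, in FPKM on a log axis, with dKO left of dHET within each stage. Each line joins 1 gene (red for Mrpl, blue for Mrps) and black bars mark the medians, 27.8 in dKO and 23.7 in dHET at P2.5, and 18.5 in dKO and 19.0 in dHET at E15.5.

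Subunits of one particle were not at one level. The highest gene was 45.5 times the lowest in P2.5 dKO and 28.5 times in P2.5 dHET, and 40.6 and 42.1 times in the E15.5 dKO and dHET libraries. Mrpl12, the stalk protein that recruits translation factors and also binds the mitochondrial RNA polymerase, ranked first in all 4 libraries. The order was much alike at the 2 stages: over the 75 genes the log2 levels at P2.5 and E15.5 correlated with r = 0.917 in dKO and r = 0.908 in dHET (rho = 0.914 and 0.916; points share libraries and transcript lengths). By the mean of the 2 libraries of a stage, Mrpl17, Mrps33 and Mrps36 were among the 4 lowest at both stages, although Mrps36 ranked 70th of 75 in the P2.5 dHET library. Mrps36, which is now known as a part of the 2-oxoglutarate dehydrogenase complex and not of the ribosome, was last at E15.5, at 1.56 FPKM in dKO and 1.58 in dHET.

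A few genes held different places at the 2 stages, and the following were picked after their values were seen. Reads came from a single end at P2.5 and from both ends at E15.5, so stage and read layout cannot be told apart here. Mrpl3, a large subunit protein whose human gene is mutated in some cardiomyopathies, ranked 40th in dKO and 36th in dHET of the 75 at P2.5, but 11th in dKO and 13th in dHET at E15.5. Mrps18c went the other way, ranked 30th in dKO and 27th in dHET at P2.5 and 52nd in dKO and 56th in dHET at E15.5. It is one of 3 mouse paralogs of the bacterial S18: Mrps18a had 35.7 FPKM in dKO and 31.3 in dHET at P2.5, Mrps18b 9.07 in dKO and 7.39 in dHET, and Mrps18c 34.7 in dKO and 31.0 in dHET. Mrps18b was thus the lowest of the paralogs in both P2.5 libraries, and it was the lowest at E15.5 too, at 7.52 FPKM in dKO and 8.10 in dHET.

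At P2.5 more of these genes were higher in dKO than lower. On the scale of log2((FPKM in dKO + 1)/(FPKM in dHET + 1)), which understates changes of low genes, the median of the 75 was 0.20, against 0.07 over all 11703 rows with at least 1 FPKM. Of the 75, 58 were above 0 and 17 below, where 60.7% of all rows were above 0. At least 1.2-fold higher were 31 genes, 41.3% of the 75 against 21.8% of all rows, and at least 1.2-fold lower were 3, or 4.0% against 9.95% of all rows. At least 1.5-fold higher were 3 genes, Mrpl34, Mrps34 and Mrpl12 (all rows 3.4%), and none was 1.5-fold lower (all rows 1.33%). The other 41 genes lay within 1.2-fold. In bulk RNA a gene's difference cannot be divided into more RNA per cell and more cells of a type.

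The count at P2.5 depends on how the 2 libraries are scaled. With each library rescaled to the same summed FPKM, the median of all rows moved to -0.09, 8 members were at least 1.2-fold higher and 9 lower, and 11.4% of all rows were higher and 26.6% lower. Centred on the median of all rows, 16 members were higher and 5 lower, with 15.5% of all rows higher and 14.8% lower. As reported, 52 of the 75 lay above the median change of all rows, a count that centring cannot move and rescaling hardly can. After an adjustment for transcript GC content and length over all rows, 45 did, and 21.3% of the 75 against 18.7% of all rows were at least 1.2-fold higher. Without the 22 genes that another coding gene overlaps, the median was 0.12 and 19 of 53 genes (35.8%) were higher, against 21.8% of all rows. This setting was chosen after seeing the data. The changes below are to be read against the all-row median of 0.07.

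**Figure D2:**
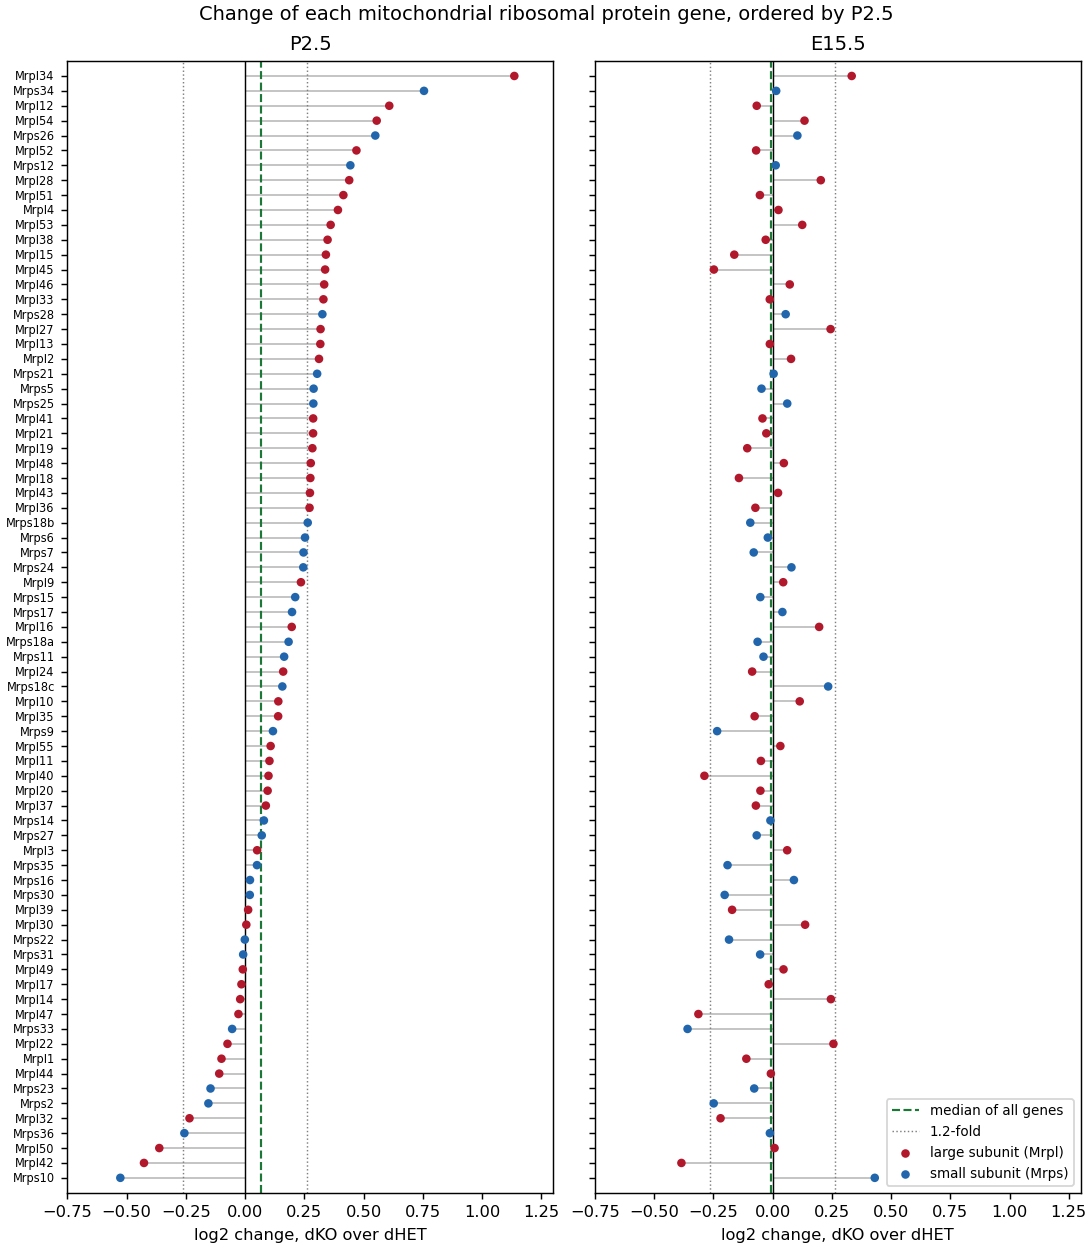
Log2 change, dKO over dHET, of each of the 75 genes at P2.5 (left) and at E15.5 (right), in the order of the P2.5 change. Dotted lines mark 1.2-fold and the dashed line the median of all rows, 0.07 in the left panel and -0.01 in the right one; 31 genes lie right of the upper dotted line at P2.5 and 2 at E15.5.

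Mrpl34, the counterpart of the small bacterial protein L34, differed most. It had 143 FPKM in the dKO library and 64.7 in the dHET library at P2.5, a log2 change of 1.14. It is a gene of 2 exons at chr8:73988825-73989652 (mm9) with no near-identical copy elsewhere in the genome, meaning one that matches at least 50% of the transcript at 95% identity or more. In the authors' deposited table it is the only one of the 75 called significant between these libraries (p = 3.27e-05, q = 0.0116), where 0.444% of all rows are.

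Mrps34, a mitochondria-specific small subunit protein whose loss in humans causes Leigh syndrome, had 49.1 FPKM in dKO and 28.7 in dHET (log2 change 0.75). The authors give its locus as chr17:25032065-25033218 (mm9). In the GENCODE M1 annotation its span is longer, 25032061 to 25034447, and that span is overlapped by Nme3 and Mapk8ip3. No source here gives the strand of counting, so its reads and theirs may not be separable. Mrpl12, at chr11:120345983-120350068 (mm9), had 154 FPKM in dKO and 101 in dHET (log2 change 0.61). A copy elsewhere in the genome matches 69.2% of its transcript at 95.7% identity, and no source used here says how such reads were placed. In the authors' deposited table the p-value was 0.00809 for Mrps34 and 0.0244 for Mrpl12, with q-values of 0.478 and 0.818.

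Promoters are shown for 4 genes on which these results turn: Mrpl34, the largest difference at P2.5; Mrpl12, the highest level; Mrpl42, lower in dKO at both stages; and Mrps11, which shares its start region with Mrpl46, so that this stretch lies beside the starts of genes of both subunits. Each runs from 250 bases before to 50 after the annotated start (RefSeq, build GRCm38.p6), and capitals mark the words searched. These were CCGGAAG of ETS factors such as NRF2 (GABP), GCATGCG of NRF1, AAGATGG of YY1 and AAGGTCA of the estrogen-related receptors, each on both strands, and all known from nuclear genes of mitochondria.
Mrpl34, chr8:71464676-71464975, plus strand: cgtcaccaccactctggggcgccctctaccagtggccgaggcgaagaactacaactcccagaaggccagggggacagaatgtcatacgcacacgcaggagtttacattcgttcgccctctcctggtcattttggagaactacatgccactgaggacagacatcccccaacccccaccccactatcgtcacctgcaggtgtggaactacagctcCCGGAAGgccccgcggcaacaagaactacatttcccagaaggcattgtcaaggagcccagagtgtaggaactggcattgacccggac
Mrpl12, chr11:120484387-120484686, plus strand: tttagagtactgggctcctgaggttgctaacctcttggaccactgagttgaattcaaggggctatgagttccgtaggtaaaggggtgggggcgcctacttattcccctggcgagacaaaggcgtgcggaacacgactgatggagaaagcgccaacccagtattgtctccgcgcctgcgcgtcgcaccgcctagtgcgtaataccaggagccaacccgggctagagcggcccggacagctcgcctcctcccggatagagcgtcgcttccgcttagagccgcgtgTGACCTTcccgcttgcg
Mrpl42, chr10:95501900-95502199, minus strand: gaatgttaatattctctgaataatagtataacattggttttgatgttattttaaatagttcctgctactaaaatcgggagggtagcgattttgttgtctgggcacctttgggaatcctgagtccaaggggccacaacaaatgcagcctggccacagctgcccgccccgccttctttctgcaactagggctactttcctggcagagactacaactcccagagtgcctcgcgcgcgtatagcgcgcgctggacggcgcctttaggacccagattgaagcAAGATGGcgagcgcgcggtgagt
Mrps11, chr7:78782881-78783180, plus strand: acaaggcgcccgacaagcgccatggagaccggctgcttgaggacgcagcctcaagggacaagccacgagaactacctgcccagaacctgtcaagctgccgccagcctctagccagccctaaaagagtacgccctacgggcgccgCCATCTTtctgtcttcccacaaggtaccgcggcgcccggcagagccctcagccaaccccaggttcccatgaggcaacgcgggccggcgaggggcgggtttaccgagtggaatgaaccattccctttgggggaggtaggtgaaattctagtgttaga

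In the Mrpl34 window the ETS word begins at position -37 from the start. The Mrpl12 window holds the reverse of the receptor word, TGACCTT, at position 33. In the Mrpl42 window the YY1 word begins at position 27, and the Mrps11 window holds its reverse, CCATCTT, at position -106. RefSeq windows were matched for 66 of the 75 genes, 72 windows in all.

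ETS words were in 33.3% of the members' windows, against 17.3% of the windows of genes with at least 1 FPKM at P2.5 and 8.86% of all windows. YY1 words were in 18.1%, against 6.92% and 6.34%. NRF1 words were in 11.1%, against 6.38% and 3.58%, and receptor words in 5.56%, against 3.13% and 4.72%. Windows of the members at least 1.2-fold higher at P2.5 held an ETS word in 50% of cases (14 of 28 windows) and those of the other members in 22.7% (10 of 44). The 28 windows come from 23 of the 31 higher genes, some of them counted more than once, and the 44 windows from 43 of the other genes. Genes without a window thus lie mainly among the higher members, which limits this contrast. For YY1 the order was the other way, with 10.7% in the higher members and 22.7% in the others. NRF1 words were in 7.14% of the windows of the higher members and 13.6% of the others. Receptor words were in 10.7% (3 of 28 windows) and 2.27% (1 of 44). Members' windows had a median GC content of 58.2%, and those of genes with at least 1 FPKM one of 61.0%. A word is only a match of letters, and windows of one gene overlap.

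Within the large subunit 23 of 46 genes were at least 1.2-fold higher in dKO at P2.5 and 2 lower, with a median log2 change of 0.25; these are 50% and 4.35% of the subunit, against the 21.8% and 9.95% of all rows. At the base of the stalk that carries Mrpl12, Mrpl10 had 32.5 FPKM in dKO and 29.4 in dHET (0.14), and Mrpl11 had 9.15 in dKO and 8.46 in dHET (0.10). Between these 2 libraries Mrpl12, which has a genomic copy, thus differed by more than Mrpl10 and Mrpl11, a contrast that was not tested. At E15.5 the changes were -0.07 for Mrpl12, 0.11 for Mrpl10 and -0.05 for Mrpl11. Among proteins near the peptidyl transferase centre, Mrpl2 had 48.1 FPKM in dKO and 38.6 in dHET (0.31), Mrpl27, which has a genomic copy, 25 in dKO and 19.9 in dHET (0.32), and Mrpl16 38.5 in dKO and 33.5 in dHET (0.20). Mrpl3, of the same region, was at 26.5 FPKM in dKO and 25.6 in dHET (0.05).

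Proteins around the exit of the peptide tunnel showed no common direction at P2.5. Mrpl45, which ties the ribosome to the inner membrane, had 19.9 FPKM in dKO and 15.6 in dHET (0.34). Mrpl22, which lines the tunnel, had 10.3 in dKO and 10.9 in dHET (-0.07), and Mrpl24 39.5 in dKO and 35.3 in dHET (0.16). Mrpl47, the counterpart of bacterial L29, had 15.4 in dKO and 15.8 in dHET (-0.03), and Mrpl44, whose human gene is mutated in an infantile cardiomyopathy, 15.9 in dKO and 17.2 in dHET (-0.11). Only Mrpl45 of these passed 1.2-fold.

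The genes that continue the bacterial numbers L32 to L36 were above 0 at P2.5 except Mrpl32. Mrpl33 had 80.0 FPKM in dKO and 63.4 in dHET (0.33), and Mrpl36 29.0 in dKO and 23.8 in dHET (0.27). Mrpl35 was at 6.51 in dKO and 5.82 in dHET (0.14). Mrpl32, whose precursor is cut by the m-AAA protease before it joins the ribosome, was below its control, at 19.8 in dKO and 23.4 in dHET (-0.23). A genomic copy matches 97.9% of the Mrpl32 transcript at 95.2% identity. With Mrpl34 at 1.14, these genes held both the largest positive difference of the 75 and one of the 8 largest negative ones.

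Other large subunit genes among the 10 largest increases were Mrpl54, with 79.1 FPKM in dKO and 53.5 in dHET (0.56), Mrpl52, with 80.3 in dKO and 57.7 in dHET (0.47), and Mrpl28, with 66.0 in dKO and 48.4 in dHET (0.44). Mrpl51 had 45.0 in dKO and 33.5 in dHET (0.41), and Mrpl4 46.2 in dKO and 35 in dHET (0.39). Mrpl28 and Mrpl4 descend from bacterial L28 and L4, and the others are mitochondria-specific. Near-identical genomic copies were found for 17 of the 75, whose values are uncertain for that reason: Mrpl4, Mrpl12, Mrpl18, Mrpl21, Mrpl22, Mrpl27, Mrpl30, Mrpl32, Mrpl41, Mrpl42, Mrpl51, Mrps10, Mrps16, Mrps18b, Mrps21, Mrps33 and Mrps36. Without them, 37.9% of the other 58 genes were at least 1.2-fold higher at P2.5, against 21.8% of all rows.

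The genes lower at P2.5 were few. Mrpl42, a mitochondria-specific protein at chr10:94943440-94964561 (mm9), had 52.6 FPKM in dKO and 71.1 in dHET, a log2 change of -0.43; it ranked 11th of the 75 in dKO and 2nd in dHET. Mrpl50 had 14.8 in dKO and 19.4 in dHET (-0.36). In the small subunit, Mrps10, the counterpart of bacterial S10 at chr17:47505836-47515628 (mm9), had 4.82 FPKM in dKO and 7.39 in dHET (-0.53). Mrpl42 has a copy that matches 94.4% of its transcript at 95.9% identity, and Mrps10 one that matches 85.8% at 97.9%.

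Within the small subunit, 8 of 29 genes passed 1.2-fold upward at P2.5 and 1 downward, with a median of 0.16. These are 27.6% and 3.45% of the subunit, so its share on the higher side was near the 21.8% of all rows. Mrps12, which lies at the decoding centre, had 26.1 FPKM in dKO and 18.9 in dHET (0.44). Mrps26 had 34.5 in dKO and 23.3 in dHET (0.55). Mrps5, Mrps21, Mrps25 and Mrps28 were between 0.29 and 0.33, and Mrps18b stood just past the limit at 0.26. Mrps22, mutated in some human cardiomyopathies, was at 15 FPKM in both libraries (-0.0014 on the log2 scale). Mrps7 and Mrps24, of the head of the subunit, had changes of 0.25 and 0.25, whereas Mrps10 of the head was at -0.53.

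Division by origin gave one order by median and the other by count. Origin was assigned mainly from the number in the gene name, so single genes may be misplaced. The 45 genes counted as having a bacterial counterpart had a median of 0.20 at P2.5, with 17 (37.8%) at least 1.2-fold higher and 1 lower. The 30 counted as mitochondria-specific, which include Mrps36, had a median of 0.10, with 14 (46.7%) higher and 2 lower. Of all rows 21.8% were higher and 9.95% lower. The mitochondria-specific group was wider, with an interquartile range of -0.01 to 0.34, against 0.08 to 0.29. The names do not always give the place: Mrps18a and Mrps30 sit in the large subunit of the mammalian particle, and stood at 0.18 and 0.02.

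At E15.5 the same genes did not share a direction. The median of the 75 was -0.02, against -0.01 over all 11709 rows, with 31 above 0 and 44 below. At least 1.2-fold higher were 2 genes, Mrps10 and Mrpl34 (all rows 5.16%), and lower were 4, Mrpl42, Mrps33, Mrpl47 and Mrpl40 (all rows 4.39%). None was 1.5-fold higher (all rows 0.487%) or lower (all rows 0.726%), and none is called significant in the authors' deposited table (all rows 0.863%). The 46 Mrpl genes had a median of -0.01 and the 29 Mrps genes one of -0.04. Members past 1.2-fold made up 2.67% on the higher and 5.33% on the lower side, so the 75 stood near the background at this stage.

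The 4 lower genes at E15.5 belong to different regions of the particle. Mrpl42 had 48.1 FPKM in dKO and 63.2 in dHET (-0.39), and Mrps33 3.69 in dKO and 5.01 in dHET (-0.36). Mrpl47 had 11.1 in dKO and 14 in dHET (-0.31), and Mrpl40 14 in dKO and 17.3 in dHET (-0.29). Mrpl40 and Mrpl47 were at 0.10 and -0.03 at P2.5. Among the higher genes, Mrps10 had 8.68 FPKM in dKO and 6.18 in dHET (0.43), and Mrpl34 59.3 in dKO and 46.8 in dHET (0.33). Next came Mrpl22, with 4.28 in dKO and 3.42 in dHET (0.26), Mrpl14 (0.25), Mrpl27 (0.24) and Mrps18c (0.23).

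Across the stages 1 gene was at least 1.2-fold higher in dKO both times, Mrpl34, and 1 was lower both times, Mrpl42. Mrps10 was lower in dKO at P2.5 and higher at E15.5. The genes that led at P2.5 after Mrpl34 were close to level at E15.5: Mrps34 had 20.2 FPKM in dKO and 19.98 in dHET, and Mrpl12 63.3 in dKO and 66.3 in dHET. Of the 75, 26 were above 0 at both stages, 12 below at both, 32 above at P2.5 and below at E15.5, and 5 the reverse. The changes at the 2 stages correlated weakly over the 75 (r = 0.25, rho = 0.26) and over 11270 rows measured at both stages (r = 0.37, rho = 0.38); genes are not independent replicates.

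The authors' deposited table also gives a test statistic for each gene, from which the error it assigned to each log2 ratio can be read. This error covers the authors' model of 2 libraries, not the spread between hearts. At P2.5 its median over the 75 was 0.30 on the log2 scale (0.27 to 0.56), and at E15.5 it was 0.20 (0.16 to 0.73). The deposited ratio exceeded 1 such error in 26 genes at P2.5, 23 of them higher in dKO (18.2% of all rows) and 3 lower (8.23% of all rows). At E15.5 it did so in 16 genes, 6 higher (9.98% of all rows) and 10 lower (10.7% of all rows). The authors' deposited p-value was under 0.05 for 4 of the 75 at P2.5, where 4.72% of all rows were, and for 1 at E15.5, where 3.92% were, so these counts are near or below the background.

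Genes that work with the ribosome were measured in the same libraries. Of 8 genes listed as subunits under other names, the P2.5 dKO library had 3 at least 1.2-fold higher and 1 lower (median 0.24). These are 37.5% and 12.5%, against 21.8% and 9.95% of all rows. Aurkaip1, a late small subunit protein, had 54.5 FPKM in dKO and 34.8 in dHET (0.63), and Ict1, a peptidyl hydrolase built into the large subunit, 40.3 in dKO and 32 in dHET (0.32). Ptcd3, a small subunit protein with pentatricopeptide repeats, was below its control, at 21.5 in dKO and 27.6 in dHET (-0.35). The third higher gene was Dap3, the GTP-binding protein of the small subunit (0.31). Bola3 and Mplkip (listed as 2810021B07Rik) in this list are not ribosomal subunits, and their changes were 0.23 and -0.12.

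Assembly factors had a median of 0.18 at P2.5, with 8 of 21 at least 1.2-fold higher and 1 lower. These are 38.1% and 4.76%, against 21.8% and 9.95% of all rows. Rbfa, which binds the maturing small subunit, had 24.3 FPKM in dKO and 16.1 in dHET (0.56). Ftsj2, a methyltransferase of the large ribosomal RNA, had 6.40 in dKO and 4.20 in dHET (0.51), and Wbscr16 9.78 in dKO and 6.71 in dHET (0.48). Mterfd2, which guides a methyltransferase to the ribosome, was the lower one, at 5.64 in dKO and 8.73 in dHET (-0.55). At E15.5 none of the 21 passed 1.2-fold (all rows 5.16% higher and 4.39% lower), and the median was 0.01.

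Translation factors stood close to the all-row median at P2.5, at 0.07, with 1 of 14 higher and 2 lower. These are 7.14% and 14.3%, against 21.8% and 9.95% of all rows. Tsfm, the exchange factor of the elongation factor Tufm, had 34.2 FPKM in dKO and 23.4 in dHET (0.53). The release factor Mtrf1 had 2.57 in dKO and 3.48 in dHET (-0.33), and Oxa1l, which inserts new proteins into the inner membrane, 38.3 in dKO and 47.1 in dHET (-0.29). Among 22 transfer RNA synthetases and related genes, 7 (31.8%) were higher and 2 (9.09%) lower, with a median of 0.13. The largest differences there were Lars2, with 94.5 FPKM in dKO and 204 in dHET (-1.10), and Gars, which serves both cytosol and mitochondria, with 61.9 in dKO and 37.5 in dHET (0.71). Genes of mitochondrial transcription and RNA handling had a median of 0.00, with 1 of 13 (7.69%) higher and none lower. At E15.5 none of the translation factors, synthetases, RNA genes or subunits under other names passed 1.2-fold, with medians between -0.10 and 0.04. Of all rows 5.16% were higher and 4.39% lower at that stage.

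Set beside other protein complexes, the ribosome of mitochondria had the highest median of the 3 groups at P2.5. The 79 subunits of the respiratory chain and ATP synthase had a median of 0.17, with 29 (36.7%) at least 1.2-fold higher and 9 (11.4%) lower. The 64 measured genes of the cytosolic ribosome had a median of 0.13, with 21 (32.8%) higher and 15 (23.4%) lower. The shares of all rows were 21.8% higher and 9.95% lower. The spread of the cytosolic genes was wider, with 6 of them 1.5-fold higher and 9 lower, against 3 and 0 of the 75. Of all rows 3.4% were 1.5-fold higher and 1.33% lower. The cytosolic genes reached down to 0.115 FPKM in dKO and 0.819 in dHET at P2.5, and their lowest change was -5.18. Genomic copies were searched for Mrpl and Mrps genes only, so the part of copies in this spread was not tested. At E15.5 the respiratory chain had a median of 0.07, with 10 of 78 (12.8%) higher and 0 lower. The cytosolic ribosome had one of -0.06, with 9 of 69 (13.0%) higher and 16 (23.2%) lower. The mitochondrial ribosome had one of -0.02, with 2.67% higher and 5.33% lower. Of all rows 5.16% were higher and 4.39% lower at that stage. No test of these contrasts was possible.

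**Figure D3:**
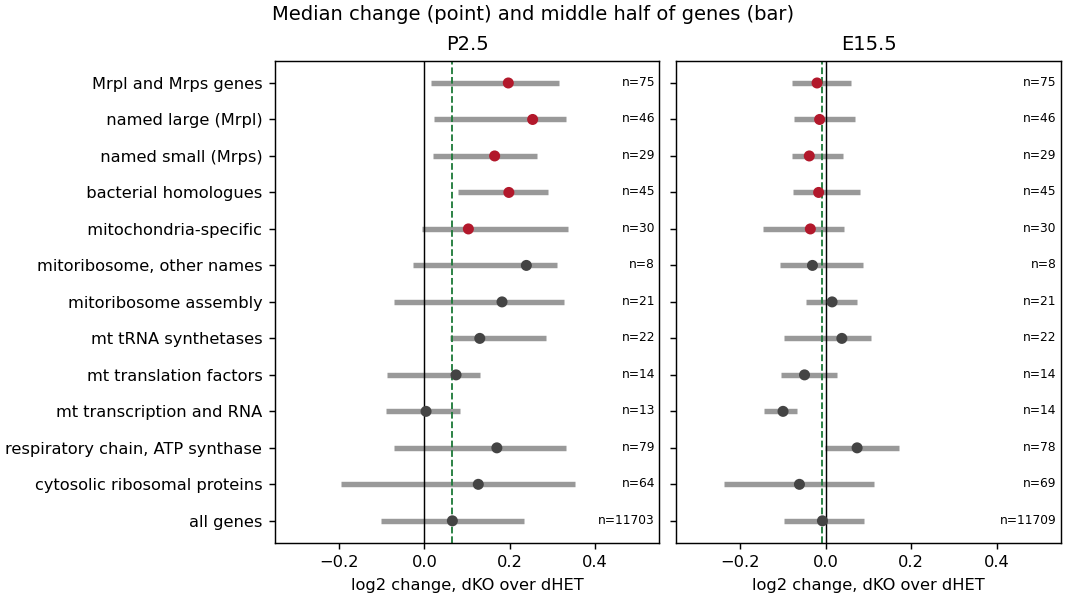
Median log2 change, dKO over dHET (points), and the interquartile range of genes (bars) for the 75 genes, their subsets and related gene groups at P2.5 (left) and E15.5 (right). The dashed line is the median of all rows; the 75 genes stand at 0.20 at P2.5 and at -0.02 at E15.5.

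Of the heart muscle markers 66.7% were above 0 at P2.5, near the 60.7% of all rows. Of the 12 cardiomyocyte markers, 6 passed 1.2-fold upward in dKO and 1 downward (21.8% and 9.95% of all rows), with a median of 0.25 and a summed level of 34599 FPKM in dKO and 27488 in dHET. Tnnt2, the cardiac troponin T, had 5545 FPKM in dKO and 3314 in dHET, and the lower marker was the calcium pump inhibitor phospholamban, Pln, with 731 in dKO and 1266 in dHET. At E15.5 none of the 12 was higher and 2 were lower (5.16% and 4.39% of all rows). Their summed level was 13551 FPKM in dKO and 14340 in dHET. Of 10 fibroblast markers at P2.5, 3 were higher and 4 lower (summed level 1539 FPKM in dKO, 1487 in dHET), and of 9 macrophage markers none was higher and 4 lower (41.9 in dKO, 54.3 in dHET). Smooth muscle markers were higher in 4 of 8 and lower in 0 (2665 in dKO, 1271 in dHET), endothelial ones in 1 of 11 and 0 (517 in dKO, 461 in dHET), and epicardial ones in 3 and 4 of 9 (60.6 in dKO, 54.1 in dHET). None of these markers was at 0 in either P2.5 library. Of the 7 erythroid markers with a row of their own, only Hbb-b2, with 7.61 FPKM in dKO and 20.8 in dHET, and Alas2, with 18.6 in dKO and 12.5 in dHET, reached 1 FPKM at P2.5; Hba-a2 was listed at 0 in both libraries and Hba-x at 0 in dKO. The rows shared by near-identical globin genes stand apart from these: that of Hba-a1 and Hba-a2 had 292.4 FPKM in dKO and 184.5 in dHET at P2.5, and that of Hbb-b1 and Hbb-b2 had 92.6 in dKO and 28.9 in dHET. The part of cell composition in the values of the mitochondrial ribosome was not tested.

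Base composition moved with the change too. Over the 75 genes the P2.5 change correlated with the GC content of the longest coding transcript at r = 0.47 (rho = 0.45), and over 11405 rows at r = 0.35 (rho = 0.40). The 24 members with at least 53% GC had a median change of 0.30, with 14 at least 1.2-fold higher, where the rows of that range had a median of 0.17 and 34.7% higher. The 31 members between 47% and 53% had a median of 0.11, against 0.08 over such rows, and the 20 below 47% had one of 0.10, against -0.06. At E15.5 the correlation with GC was r = 0.30 in the 75 and 0.15 over all rows. Adjusted for GC content and length, 16 of the 75 (21.3%) were 1.2-fold higher at P2.5, against 18.7% of all rows. The P2.5 change also correlated with the gene's mean level (r = 0.44). The part of GC content in the result was not otherwise tested.

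**Figure D4:**
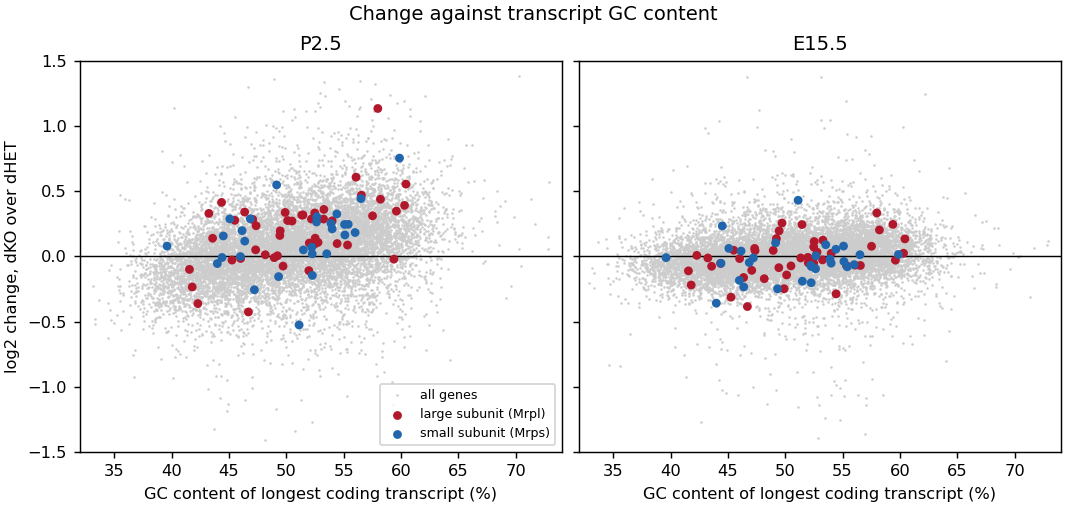
Log2 change, dKO over dHET, against the GC content of the longest coding transcript in percent, at P2.5 (left) and E15.5 (right). Grey points are all genes, red points Mrpl and blue points Mrps genes; r over the coloured points is 0.47 on the left and 0.30 on the right.

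The transcripts of the mitochondrial ribosome are short. Their median length was 1213 bases, against 3062 over all rows, and their median 3' UTR was 327 bases long, against 1188. The word ACATTCC, which pairs with the seed of miR-1, was found in the annotated 3' UTR of 5 of the 75, Mrpl1, Mrpl35, Mrpl48, Mrps5 and Mrps25, or 6.67%, against 11.0% of all rows. At P2.5 Mrps5, Mrps25 and Mrpl48 had changes of 0.29, 0.29 and 0.28, Mrpl35 one of 0.14 and Mrpl1 one of -0.10. At E15.5 these 5 were between -0.11 and 0.06. Neither Mrpl34, Mrps34 nor Mrpl12 holds the word.

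Some of these genes lie head to head with a neighbour. In the GENCODE M1 annotation, 28 of the 75 have a coding gene on the other strand that starts within 1000 bases, and 22 are overlapped by another coding gene. Such neighbours were not counted over all genes, so these counts have no background to be set against. Mrps12 starts 171 bases from Sars2, the mitochondrial seryl transfer RNA synthetase; Mrps12 changed by 0.44 on the log2 scale at P2.5, and Sars2 had 10.5 FPKM in dKO and 8.25 in dHET (0.31). Mrpl46 and Mrps11 overlap at their starts in that annotation, though not in the positions the authors give, and stood at 0.33 and 0.16. Mrpl51 and Ncapd2, a condensin subunit, were at 0.41 and 0.39, and Mrps34 and Eme2, of a DNA repair nuclease, at 0.75 and 0.33. Mrpl50 and Zfp189 were both below 0, at -0.36 and -0.12, and Mrpl48 and Rab6 were on opposite sides, at 0.28 and -0.24. Some partners stayed near the all-row median or below it, such as Mtbp at 0.07 beside Mrpl13 (0.32), Tcp1 at 0.08 beside Mrpl18 (0.28) and Gga3 at 0.00 beside Mrps7 (0.25). Further partners stood above it, such as Ppp1r10 at 0.34 beside Mrps18b (0.26), Peo1 at 0.26 beside Mrpl43 (0.27) and Eme1 at 0.26 beside Mrpl27 (0.32). The pairs named are examples, and whether neighbours change together was not tested. At E15.5 Sars2 was at -0.10 beside Mrps12 at 0.01, and Ncapd2 at -0.12 beside Mrpl51 at -0.05.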

How the data were processed

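RNA was read at 100 bases, from a single end at P2.5 and from both ends at E15.5, per the labels. The deposited values are FPKM, in 1 table per stage made by the authors. The submitters' processing notes list TopHat, Bowtie, Cufflinks and mm9, without versions. Their settings, and how reads matching several places were counted, were not given in the sources used here. The authors' deposited log2 ratios, p-values and q-values were used only where named; the E15.5 ratio was turned to dKO over control. The E15.5 control column carries the name WT while its label says dHET, and it was taken as the dHET library. Per stage, 86 rows displaced by commas in gene names were realigned on their position, and rows were used if their flag was OK or said that the authors had not tested them for lack of fragments.

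The change was log2((FPKM dKO + 1)/(FPKM dHET + 1)), for rows with at least 1 FPKM in either library of a stage (11703 rows at P2.5, 11709 at E15.5). With 1 library per group no test was made and no p-value computed. All 75 genes passed this limit at both stages. The procedure was checked on simulated data. Members and gene lists were chosen with earlier results of these data known. Named genes were those past 1.5-fold, the 8 largest changes each way per stage, those past 1.2-fold at both stages, the 6 highest and 4 lowest levels, the S18 paralogs, Mrpl12 and Mrps36, and up to 4 genes per list. Other genes are named for their role, their neighbour or their place in a count, after their values were seen. Transcript length, GC content, 3' UTR, neighbours and overlaps come from GENCODE M1 on NCBIM37, the assembly of mm9. Genomic copies (at least 50% of the transcript at 95% identity or more) come from minimap2 2.31. Python 3.11.15, pandas 2.3.3, numpy 2.4.6, scipy 1.17.1 and matplotlib 3.10.9 were used. Genes of mitochondrial DNA were not analysed here. Alternatives were other pseudocounts, filters, status flags and scalings, and an adjustment for GC content and length.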

Additional observations from a re-analysis of the deposited data

Results flagged for a closer look

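Mrps10, the counterpart of bacterial S10, was past 1.2-fold in opposite directions at the 2 stages, with a log2 change of -0.53 at P2.5 (4.82 FPKM in dKO, 7.39 in dHET) and of 0.43 at E15.5 (8.68 FPKM in dKO, 6.18 in dHET). With 1 library per group the difference between the stages was not tested. A near-identical copy elsewhere in the genome matches 85.8% of its transcript at 97.9% identity, and among the 75 genes its level ranked 73rd in dKO and 67th in dHET at P2.5, and 59th in dKO and 69th in dHET at E15.5.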

How the results depend on the processing

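No paired analysis was possible because each group has 1 library; for the same reason no replicate could be left out. At P2.5 the 31 genes at least 1.2-fold higher became 20 with a pseudocount of 5 and 16 centred on the median of all rows. They became 8 with libraries rescaled to a sum of 1000000, and 16 adjusted for GC content and length. The shares of the 75 were 41.3% as reported, 26.7% with that pseudocount, 21.3% centred, 10.7% rescaled and 21.3% adjusted. Those of all rows were 21.8%, 12.3%, 15.5%, 11.4% and 18.7%, in the same order. The 3 at least 1.2-fold lower (9.95% of all rows) became 5 when centred (14.8% of all rows) and 9 when rescaled (26.6% of all rows). At least 1.5-fold lower were 0 genes as reported, 1 with a pseudocount of 0.1, 1 when centred and 2 when rescaled, and the median of 0.20 became 0.131 when centred and 0.029 when rescaled, which moves all rows down together. Chosen after seeing the data, leaving out genes with a genomic copy gave 1 lower at P2.5, and leaving out overlapped genes gave 19 higher of 53 and a median of 0.117. At E15.5 the 4 lower genes became 1 with a pseudocount of 5 and 2 without genes with a copy, and the 2 higher became 1 at a minimum of 10 FPKM and 1 without genes with a copy. The median of mitochondrial transcription genes at P2.5 was -0.0616 when centred, against 0.00 as reported; the centring subtracts 0.07. No gene past 1.2-fold changed direction under any setting run. Of 34 such genes at P2.5, 10 stayed past 1.2-fold under every setting that held them (Mrpl34, Mrps34, Mrpl12, Mrpl54, Mrps26, Mrpl52, Mrps12, Mrpl28, Mrpl42 and Mrps10), and of 6 at E15.5, 3 did (Mrpl34, Mrpl42 and Mrps10). The tables hold no counts, so the counting error of low genes such as Mrps33 and Mrpl17 is unknown.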

Other observations

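Lars2, the mitochondrial leucyl transfer RNA synthetase, was at 94.5 FPKM in dKO and 204 FPKM in dHET at P2.5, and at 141 FPKM in dKO and 121 FPKM in dHET at E15.5. It had the highest level of the 22 synthetase genes in all 4 libraries, and its log2 changes, -1.10 and 0.22, lay on opposite sides of 0. Similar sequences elsewhere in the genome were not searched for this gene, so whether all its reads come from it is unknown.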
